A study of Mus musculus with 8 samples.

Results

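Solute carriers are membrane proteins that move amino acids, sugars, ions, metals, vitamins and metabolites across the plasma membrane and the membranes of organelles. They are numbered by family, so Slc7a5 is a member of family 7, and members of a family share sequence and often a kind of substrate. In the liver, the hepatic stellate cell stores vitamin A while quiescent and, once activated, becomes a contractile myofibroblast that secretes collagen, a protein rich in glycine and proline.

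The members described here are 128 of the 200 genes in the deposited table whose name has the form Slc, a family number, the letter a and a member number. They were chosen by a mean level of at least 100 over the 8 libraries, a rule that used the measured values of every group. The other 72 genes of this name form lie under that level. The 128 members belong to 41 families, of which 10 hold 4 or more members and 16 hold a single one. Family 25, the mitochondrial carriers, is the largest with 27 members, followed by family 39 with 10. Just inside the level were Slc25a14 at 106.5 and Slc52a2 at 107.3, and just outside it Slc18a2 at 99.25 and Slc25a22 at 94.9. For description, each family was placed in 1 of 10 substrate classes. The members and classes were chosen with earlier results of these data known, so counts over them describe the set and lend no support of their own.

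RNA sequencing covered mouse hepatic stellate cells labelled with 4 cell states, with 2 libraries each, named a and b. The states are activated cells with miR-15a, activated cells with a control microRNA, activated cells with neither, and quiescent cells. All are from C57BL/6J or SCID mice, strains that the labels name without tying either to a library, and no age, sex, culture time, dose or means of delivering a microRNA is given. The labels do not say whether libraries a and b are different animals or culture dishes, and the p-values therefore reflect the spread of these samples alone, be it biological or technical.

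The deposited values are whole numbers on 1 shared set of 910 steps in every library, and totals lie between 10193036 and 10234768, so they are treated as a normalised expression score and the sequencing depth is unknown. Library pairs of a group correlated at 0.986 to 0.990. Fold changes are differences of log2(score + 5) between group means, a scale that understates the change of low genes. A gene was called at a limma adjusted p under 0.05, adjusted over all 13150 genes tested, and all 128 members were among them. "Rose" and "fell" are used of called members. Groups overlapped at no called member unless this is said.

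Markers of other liver cell types differed between the states. Of 18 endothelial markers 17 were in the table, and their summed score was 13024 to 13134 with miR-15a, 1885 to 2363 with the control microRNA, 1789 to 2037 in activated cells and 210241 to 279481 in quiescent cells. Of 18 macrophage and Kupffer cell markers 16 were in the table, with sums of 13909 to 15388, 2499 to 2754, 1943 to 2143 and 145078 to 166344 in the same 4 states. Of 18 hepatocyte markers 14 were in the table, with sums of 1752 to 2424, 342 to 1679, 432 to 626 and 14869 to 17456. No marker was at 0 in both libraries of any state. All 17 endothelial, all 16 macrophage and 13 hepatocyte markers fell on activation, and 15, 16 and 1 of them were higher with miR-15a than with the control microRNA. All 16 markers of activated stellate cells rose on activation, while of 13 quiescent stellate markers 8 fell and 5 rose. Of 10 lymphocyte markers only Cd3g was in the table, at 1 to 7, and both cholangiocyte markers present (Sox9 and Spp1, of 6 listed) rose. Xist, the RNA made from the inactive X chromosome, was at 3373 and 3373 with miR-15a, at 3373 and 5027 with the control microRNA, at 169 and 21 in activated cells and at 8724 and 8724 in quiescent cells. The Y-linked Ddx3y was at 1046 and 1006, at 1282 and 1268, at 2606 and 2570, and at 44 and 40. The part of cell mixture and sex composition in the results below was not tested, and in bulk RNA fewer cells of a type and less RNA per cell cannot be told apart.

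Levels between genes were compared per kilobase of exon. In quiescent cells the most abundant carriers were Slc29a1, the equilibrative nucleoside transporter ENT1, at a score of 1635 per kb, and Slc39a1, a plasma membrane zinc importer, at 1569 per kb, which differ by less than the spread between libraries. Slc38a2, the system A carrier SNAT2 for glutamine and other neutral amino acids, followed at 1284 per kb, then the ADP/ATP carrier Slc25a5 at 1114 and the iron exporter Slc40a1, ferroportin, at 939.9. The order in activated cells was different: Slc39a7, which releases zinc from the endoplasmic reticulum and Golgi, was at 1475 per kb, the phosphate importer Slc20a1 at 1470 and the ADP/ATP carrier Slc25a4 at 1362. Both libraries held tied values for each of these 3 genes, so the spread behind that order cannot be judged. Slc25a4 led in cells given either microRNA, at 1814 per kb with miR-15a and 1434 with the control, ahead of Slc39a7 at 1670 and 1299. Slc39a7 shares 80.7% of its exon bases with the overlapping gene Gm20427, and Slc25a4 and Slc25a5 are close relatives, so how reads were assigned could move these levels.

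The comparison of activated with quiescent cells asks how carrier expression differs once stellate cells are activated. The magnesium carrier Slc41a2, the neutral amino acid exchanger Slc1a4, the zinc carrier Slc39a13 and the phosphate importer Slc20a1 rose at least 4-fold. The lysosomal peptide carrier Slc15a3, the iron exporter Slc40a1, the phagosomal metal carrier Slc11a1 and the amino acid exchanger Slc7a8 fell to about 1% of their quiescent level or less. Of the 128 members 52 rose, 61 fell and 15 were not called. That is 40.6% higher and 47.7% lower, beside 45.4% and 34.1% of all genes tested, and beside 47.1% and 35.6% of genes with a mean of at least 100. The median log2 fold change was −0.18 over members and 0.21 over all genes. Median-ratio scaling moves all genes by −0.27, and under it 40 members rose and 70 fell. The range ran from −7.74 for Slc15a3 to 3.15 for Slc41a2, but the rule favours large falls: 14 members, among them Slc15a3, Slc43a2, Slc45a3 and Slc7a8, average under 100 over the 6 activated libraries and were admitted through the quiescent ones, and all 14 were called lower. Their fold changes on activation are therefore a description. The other 114 members had 52 called higher and 47 called lower, with a median of 0.08. Without the 14, rises thus outnumbered falls in the values as deposited, but the median stayed below the 0.21 of all genes. Under median-ratio scaling, where 40 members rose and 70 fell, falls outnumbered rises with or without the 14. No genes were removed in this way from all genes, so the values are not like for like. By over 1 on the log2 scale 22 members rose and 40 fell, beside 25.2% higher and 20.5% lower of genes with a mean of at least 100. At a mean level of 100 or more, 101 members were present in every state, while 10 reached that level in quiescent cells alone, among them Slc7a7, Slc7a8, Slc9a9, Slc12a5, Slc16a9, Slc16a10, Slc24a5, Slc25a33 and Slc39a8.

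**Figure D1:**
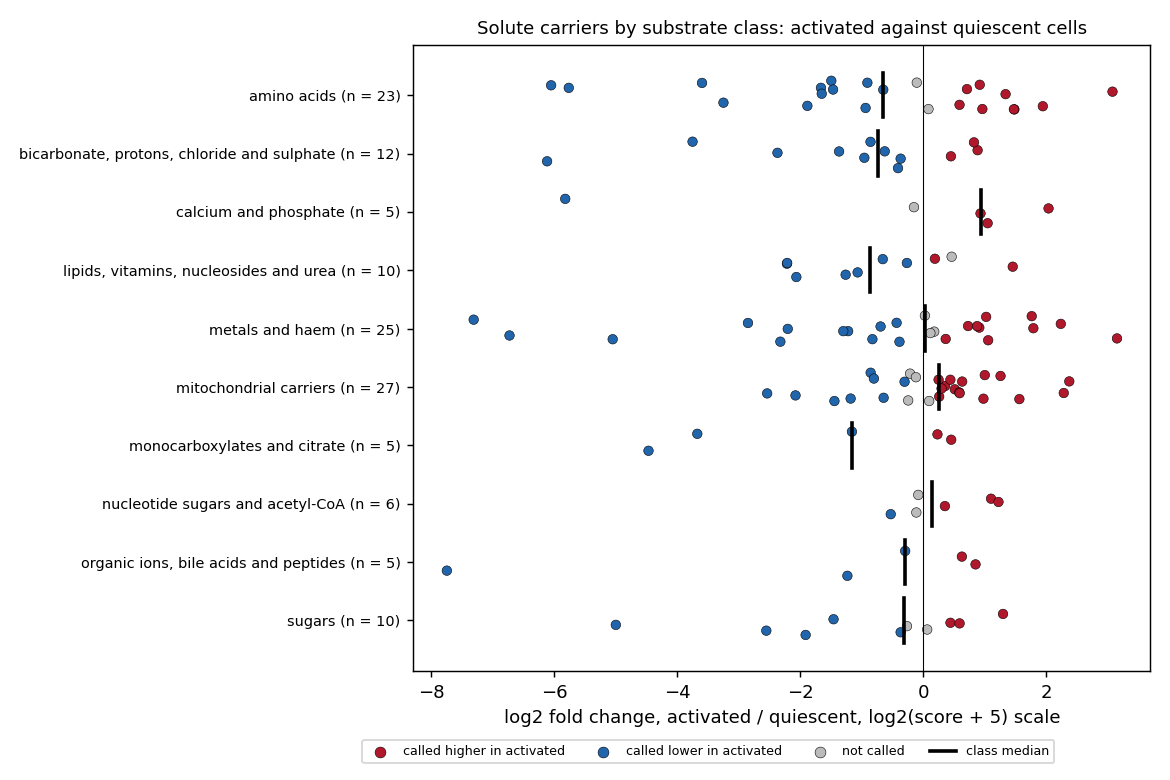
Each point is 1 of the 128 solute carriers, placed by its log2 fold change in activated against quiescent cells (x axis, log2(score + 5) scale) within its substrate class (rows, number of members in brackets). Red marks members called higher in activated cells, blue those called lower and grey those not called, and black bars are class medians, which run from −1.16 for monocarboxylates to 0.94 for calcium and phosphate.

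Amino acid carriers moved both ways on activation, with 9 of 23 members rising, 12 falling and a median of −0.65. The largest rise was that of Slc1a4, the sodium-dependent neutral amino acid exchanger ASCT1 (chr11:20302180-20332713, minus strand, GRCm38). It had a score of 784 and 834 in activated cells, against 112 and 74 in quiescent cells. Both activated libraries lie far above both quiescent ones, a log2 fold change of 3.08 ± 0.17 (SE; limma adjusted p = 1.6e-06). Slc1a5, the glutamine exchanger ASCT2, stood at 910 and 881 in activated cells, against 300 and 334 in quiescent cells, a rise of 1.49. The creatine carrier Slc6a8 rose by 1.95, the glycine carrier Slc6a9 by 1.48 and the taurine carrier Slc6a6 by 0.71, so all 3 members of family 6 rose. Among the light chains of heteromeric exchangers, Slc7a6 rose by 1.34, the cystine and glutamate exchanger Slc7a11 by 0.96 and the large neutral amino acid exchanger Slc7a5, LAT1, by 0.92. Slc3a2, the heavy chain that carries these light chains to the membrane, went the other way, at 702 and 697 in activated cells, against 2275 and 2168 in quiescent cells (log2 fold change −1.66).

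The deepest fall in this class was that of Slc7a8, or LAT2, a relative of LAT1. Its score was 13 and 7 in activated cells, against 956 and 978 in quiescent cells, a log2 fold change of −6.05. Slc43a2, the facilitative carrier LAT4, fell by 5.76, and its relative Slc43a3, a purine nucleobase carrier placed in this class by its family number, fell by 3.59. Slc7a2, a cationic amino acid carrier that supplies arginine, was at 91 and 88 in activated cells, against 912 and 870 in quiescent cells. Slc7a1, the other cationic carrier, was at 870 and 940 against 852 and 848, and this difference was not called (log2 fold change 0.09). The pair therefore stood close to each other in quiescent cells on the score and far apart in activated cells. Slc38a2 was at 3112 and 3047 in activated cells, against 11352 in both quiescent libraries, the highest value of any member. Slc38a1, also a system A carrier, fell by 1.49, the lysosomal carriers Slc38a7 and Slc38a9 by 1.46 and 0.93, and the proton-coupled carriers Slc36a1 and Slc36a4 by 0.90 and 0.65. Slc38a10, a little-studied relative, was the single riser of family 38 at 0.59.

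Amino acid shortage is known to act through the factor ATF4, which binds the sequence TGATGNAA in promoters. Of a list of 17 genes of this response that were tested, 13 rose on activation and 4 fell, beside 45.4% and 34.1% of all genes. Their median was 2.68, beside 0.21 for all genes. The asparagine synthetase gene Asns had 3812 and 4086 in activated cells, against 277 and 286 in quiescent cells, and the serine synthesis gene Phgdh rose by 5.33. Atf4 itself fell by 1.18. In the RefSeq promoter table (GRCm38.p6, 250 bases before to 50 after each start), TGATGNAA on either strand was found at 5 of the 101 members listed, or 4.95%, and at 4.51% of all 27025 genes. The 3 matches among 16 amino acid carriers were Slc1a4, Slc7a7 and Slc7a11, of which Slc1a4 and Slc7a11 rose and Slc7a7 fell. The other members with a match were Slc9a9, which fell, and Slc50a1, which rose. Only the windows of Slc1a4 and Slc7a11 are printed, picked as risers after their values were seen, and those of Slc7a7 are left out. The match is in capitals, read on the gene's strand. The windows lie at chr11:20332702-20332725, chr3:50443664-50443687 and chr3:50443645-50443668, all on the minus strand.
Slc1a4: ctcctgcgTTGCATCAtctccagc
Slc7a11 upstream match: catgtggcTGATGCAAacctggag
Slc7a11 downstream match: tggagaatTTGCATCAtcatgcag
Slc7a11 thus carries a match on each strand within a short stretch. A match of letters does not show binding.

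**Figure D2:**
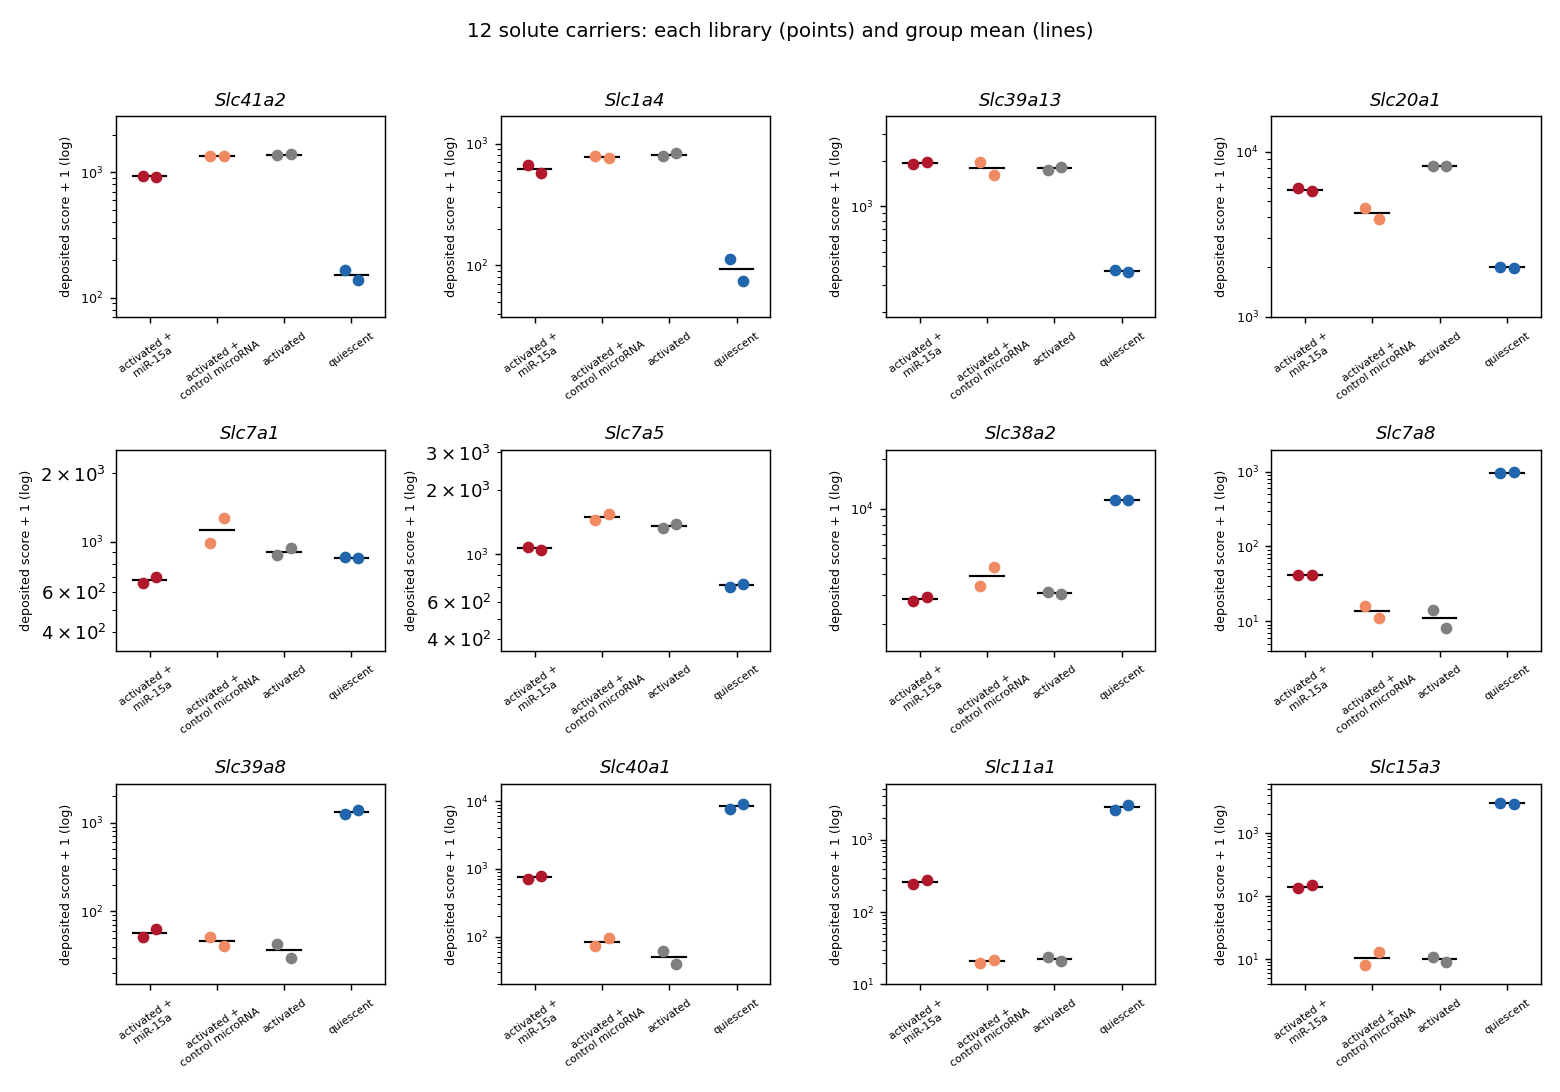
Deposited score plus 1 (log axes) of 12 carriers in each library (points) with group means (lines), in activated cells with miR-15a, activated cells with the control microRNA, activated cells and quiescent cells. Slc41a2, Slc1a4, Slc39a13 and Slc20a1 are lowest in quiescent cells, and Slc38a2, Slc7a8, Slc39a8, Slc40a1, Slc11a1 and Slc15a3 are highest there.

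Metal carriers also split on activation, with 10 of 25 members rising, 12 falling and a median of 0.03, which becomes −0.25 under median-ratio scaling. Iron export and phagosomal metal transport held the largest falls. Slc40a1 (chr1:45908068-45926523, minus strand), the only known cellular iron exporter, had a score of 61 and 38 in activated cells, against 7720 and 9198 in quiescent cells. Its log2 fold change was −7.31 ± 0.21 (limma adjusted p = 5.5e-08). Slc11a1 (chr1:74375195-74386062, plus strand), NRAMP1, which pumps divalent metals out of the phagosomes of macrophages, was at 23 and 20, against 2605 and 2991, a log2 fold change of −6.72 ± 0.13. All 16 macrophage markers fell as well, and their part in these falls was not tested. Slc11a2, the relative of Slc11a1 and the ferrous iron importer DMT1, was at 416 and 364, against 1664 and 1958. Both copper carriers fell, Slc31a1 with a log2 fold change of −1.22 and Slc31a2 of −2.85.

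Zinc carriers moved apart within both of their families. Slc39a8, ZIP8, an importer of zinc, iron and manganese, was at 42 and 29 in activated cells, against 1254 and 1380 in quiescent cells (log2 fold change −5.05). Slc39a13, ZIP13, a zinc carrier of the secretory pathway whose loss impairs connective tissue, was at 1730 and 1824, against 378 and 366 (log2 fold change 2.24 ± 0.09). Slc39a14, the relative of ZIP8, rose by 1.79 and Slc39a7 by 1.03, so of 10 members of family 39, 5 rose and 4 fell. In the exporter family 30, 3 rose and 3 fell: Slc30a1, the plasma membrane exporter, was at 269 and 284, against 1380 and 1420, while Slc30a9 rose by 1.06. Under median-ratio scaling family 30 has 2 risers and 3 fallers.

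The largest rise of any member belonged to Slc41a2 (chr10:83230848-83337882, minus strand), a magnesium carrier. It was at 1362 and 1396 in activated cells, against 164 and 138 in quiescent cells, with a log2 fold change of 3.15 ± 0.08 (limma adjusted p = 3.6e-08). Slc41a3 rose by 1.77, with quiescent values of 37 and 87, and Slc41a1 was not called at 0.18. Of 23 listed genes of iron, zinc and copper handling that were tested, 6 rose and 16 fell, beside 45.4% and 34.1% of all genes tested. Among the 16 were the ferritin light chain Ftl1, the haem oxygenase Hmox1 (−4.35) and the metallothioneins Mt1 (−1.96) and Mt2 (−3.09). Metallothioneins are zinc-binding proteins that rise with cell zinc.

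Mitochondrial carriers were the class with the most risers, 15 of 27, with 8 falling and a median of 0.26. This balance turns under median-ratio scaling, where 9 rose, 11 fell and the median was −0.01. Slc25a17, the peroxisomal member of the family that carries coenzyme A and related cofactors, was at 1222 and 1082 in activated cells, against 205 and 230 in quiescent cells (log2 fold change 2.38 ± 0.10, limma adjusted p = 3.3e-07). Slc25a4, the ADP/ATP carrier ANT1, was at 3204 in both activated libraries, against 634 and 670, a log2 fold change of 2.29. Its relative Slc25a5, ANT2, was at 1526 and 1451, against 1896 and 1772, and fell by 0.30. The citrate exporter Slc25a1 rose by 1.57 and the aspartate and glutamate carriers Slc25a12 and Slc25a13 by 1.26 and 0.98, while Slc25a39, needed for mitochondrial glutathione, was at 1874 and 1912, against 1006 and 880. Among those that fell were the pyrimidine nucleotide carrier Slc25a33 (−2.53), the NAD carrier Slc25a51 (−2.07) and the iron carriers Slc25a28 and Slc25a37, mitoferrins 2 and 1 (−1.44 and −1.18). The phosphate carrier Slc25a3 was called at 0.25, a rise that became −0.025 under median-ratio scaling and lost its call without either quiescent library or activated library a (limma adjusted p 0.0525 to 0.0742).

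In the phosphate and calcium class 3 of 5 members rose. Slc17a5, of a family listed for lysosomal and vesicular organic anions, was placed in this class by its family number. It was not called (log2 fold change −0.15). Slc20a1 (chr2:129198764-129211616, plus strand), the sodium-phosphate importer PiT1, was at 8202 in both activated libraries, against 2002 and 1976 in quiescent cells (log2 fold change 2.04 ± 0.08, limma adjusted p = 1.9e-07). Slc20a2 rose by 1.05 and the sodium-calcium exchanger Slc8a1 by 0.94. Slc24a5, a potassium-dependent sodium-calcium exchanger best known from pigment cells, was at 0 and 10, against 436 and 536. It shares 39.5% of its exon bases with Myef2 on the other strand, so its reads may be partly those of that gene.

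Carriers of bicarbonate, protons, chloride and sulphate fell in 9 of 12 cases, with a median of −0.74. Slc9a9, an endosomal sodium-proton exchanger, was at 40 and 47 in activated cells, against 679 and 612 in quiescent cells, a log2 fold change of −3.75. Slc12a5, the potassium-chloride cotransporter KCC2 of neurons, was at 3 and 2, against 496 and 530. The ubiquitous cotransporter Slc12a4, KCC1, rose by 0.45, a call lost under median-ratio scaling (adjusted p = 0.0948). Family 4 also parted: the anion exchanger Slc4a2 rose by 0.89 and the sodium-bicarbonate cotransporter Slc4a7 fell by 0.36.

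Of 10 sugar carriers 3 rose and 5 fell. The myo-inositol carriers moved in opposite directions: proton-coupled Slc2a13 was at 202 and 222 in activated cells, against 84 and 82 in quiescent cells, and sodium-coupled Slc5a3 at 786 and 743, against 2076 and 2132. The glucose carrier Slc2a1, GLUT1, rose by 0.45, while Slc2a6 (−1.91), the sugar phosphate exchanger Slc37a2 (−2.55) and Slc45a3 (−4.99) fell. Among monocarboxylate carriers the lactate importer and exporter parted, with Slc16a1, MCT1, at 400 and 388, against 876 and 892, and Slc16a3, MCT4, at 310 and 277, against 184 and 244. The rise of Slc16a3 (0.46, limma adjusted p = 0.0252) was lost without quiescent library a (adjusted p = 0.159), without activated library a (0.128) and under median-ratio scaling (0.298). Slc16a10, the aromatic amino acid carrier TAT1, fell by 4.46 and Slc16a9, a carnitine carrier, by 3.67.

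Carriers of lipids, vitamins and nucleosides fell in 7 of 10 cases, with a median of −0.86. Slc29a1 was at 1396 and 1430 in activated cells, against 6288 and 6822 in quiescent cells (log2 fold change −2.21 ± 0.08). The vitamin C carrier Slc23a2 fell by 2.21 and the choline carrier Slc44a1 by 2.06. The fatty acid carriers parted, Slc27a4 rising by 1.46 and Slc27a1 falling by 0.65, and Slc44a2 was called at 0.19, which became −0.085 under median-ratio scaling and lost its call without any one of the 4 libraries compared (limma adjusted p 0.0615 to 0.0738). Of 6 carriers of nucleotide sugars and acetyl-CoA, which feed glycosylation in the Golgi and endoplasmic reticulum, 3 rose and 1 fell: Slc35a2, for UDP-galactose, by 1.23, Slc33a1, for acetyl-CoA, by 1.11 and Slc35a1, for CMP-sialic acid, by 0.36, with Slc35a3 at −0.52. Of 5 carriers of organic ions, bile acids and peptides, Slc10a3 and Slc10a7 rose by 0.85 and 0.63. Slc15a3 (chr19:10839727-10859362, plus strand), a lysosomal histidine and peptide carrier, was at 10 and 8 in activated cells, against 3047 and 2924 in quiescent cells, the largest fall of any member (log2 fold change −7.74). It shares 28.1% of its exon bases with Tmem132a on the other strand. The carnitine carrier Slc22a5 fell by 1.23.

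Activated cells with miR-15a were set against activated cells with the control microRNA to ask which carriers differ with this microRNA. Slc11a1, Slc15a3 and Slc40a1 were several fold higher with miR-15a, though far below their quiescent level. Lower with miR-15a were the magnesium carrier Slc41a2, the zinc and iron importer Slc39a14 and a run of amino acid carriers that included Slc7a1, Slc7a5, Slc7a6 and Slc38a1. Of these, Slc7a6 and Slc38a1 were not called against activated cells without a microRNA. Of the 128 members 29 were higher with miR-15a, 23 lower and 76 not called. That is 22.7% and 17.97%, beside 14.4% and 15.4% of all genes tested, and beside 18.3% and 18.4% of genes with a mean of at least 100. Under median-ratio scaling 35 were higher and 18 lower. The differences were small for most: 9 members were higher and 1 was lower by over 1 on the log2 scale, beside 5.78% and 1.18% of genes with a mean of at least 100. The 23 lower members became 13 when miR-15a library a was left out, 14 when its partner b was, and 12 when library b of the control microRNA was.

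The 3 largest increases were those of Slc11a1, Slc15a3 and Slc40a1, which were at or under 1% of their quiescent level with the control microRNA. Slc11a1 was at 244 and 280 with miR-15a, against 19 and 21 with the control microRNA (log2 fold change 3.41 ± 0.13, limma adjusted p = 4.7e-06). Slc15a3 was at 134 and 149, against 7 and 12 (3.36 ± 0.18), and Slc40a1 at 712 and 786, against 71 and 94 (3.12 ± 0.21). In each case both miR-15a libraries lie several fold above both control microRNA libraries. Slc24a5 was at 78 and 100, against 15 and 20, a call lost when either miR-15a library (limma adjusted p = 0.0507 and 0.0818 without a and b) or library a of the control microRNA (0.0606) was left out. Slc12a5 was at 21 and 36, against 3 and 3, Slc43a2 at 153 and 156, against 28 and 46, and Slc37a2, which had kept more of its quiescent level, at 218 and 218, against 84 and 74.

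Of the 61 members that fell on activation, 19 were higher with miR-15a than with the control microRNA, or 31.1%, beside 30.3% of all genes that fell and 35.5% of those with a mean of at least 100. Another 6 of the 61 were lower with miR-15a, or 9.84%, beside 10.2% and 11.8% of the same genes. These comparisons share no library. The levels of the 19 stayed under the quiescent level for most. As a share of the quiescent mean, their median was 18.3% with miR-15a, 6.69% with the control microRNA and 8.12% in activated cells. Slc11a1 was at 9.36%, Slc40a1 at 8.85% and Slc15a3 at 4.74% of the quiescent level with miR-15a. Over the 16 macrophage markers the median share was 11.4% with miR-15a, against 2.0% with the control microRNA, and over the 17 endothelial markers 11.9% and 0.371%. Over the 11 hepatocyte markers at 100 or more in quiescent cells it was 18.2% and 11.1%. The part of these cell types in the 19 carriers was not tested. Slc27a1, at 329 and 295 with miR-15a, against 180 and 199 with the control microRNA, and Slc30a4, at 1440 and 1294, against 920 and 1014, reached 101.3% and 95.3% of the quiescent level. Other members that had fallen deeply were not called in this comparison: Slc39a8 was at 50 and 62, against 50 and 40, Slc9a9 at 28 and 42, against 36 and 31, and Slc7a2 at 216 and 204, against 256 and 220.

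**Figure D3:**
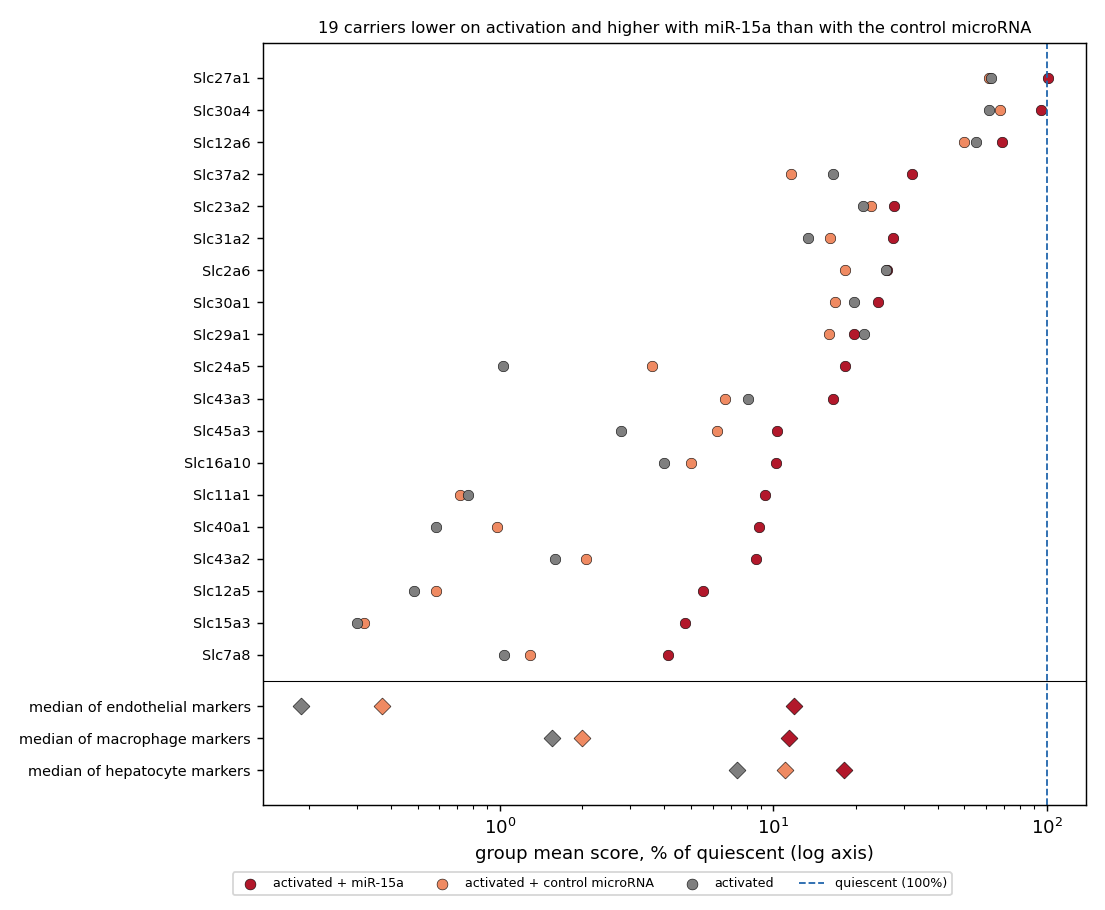
Group mean score as a percentage of the quiescent mean (log axis) for the 19 carriers called lower on activation and higher with miR-15a than with the control microRNA, in activated cells with miR-15a, with the control microRNA and with neither; diamonds give the medians of endothelial, macrophage and hepatocyte marker lists. With miR-15a the carriers lie between 4.14% for Slc7a8 and 101.3% for Slc27a1, and the marker medians between 11.4% and 18.2%.

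Amino acid carriers were the class with the most members lower with miR-15a, 10 of 23, also the largest share of any class. Another 3 of the 23 were higher. Of genes with a mean of at least 100, 18.4% were lower and 18.3% higher with miR-15a than with the control microRNA. The class median was −0.27, beside −0.07 for all genes. The 10 became 6 without miR-15a library a, miR-15a library b or control microRNA library b. Slc38a1 was at 125 and 133 with miR-15a, against 187 and 280 with the control microRNA, and Slc7a1 at 660 and 700, against 985 and 1268 (log2 fold change −0.71 ± 0.11, limma adjusted p = 0.0039). Slc7a5 was at 1086 and 1050, against 1440 and 1540, a log2 fold change of −0.48 ± 0.06 (limma adjusted p = 0.0014). Slc6a9 was lower by 0.78, Slc7a6 by 0.64, Slc7a11 by 0.53, Slc38a2 by 0.45, Slc1a5 by 0.33, Slc36a4 by 0.31 and Slc6a6 by 0.27. Slc1a4, the largest riser of the class on activation, was at 662 and 574, against 795 and 756, and was not called (−0.33). The 3 higher members, Slc43a2, Slc7a8 and Slc43a3, were the 3 deepest fallers of the class on activation. Of the 10 lower members, Slc1a5, Slc6a9, Slc7a6, Slc38a1 and Slc38a2 were not called against activated cells without a microRNA. For Slc38a1 the level with the control microRNA was itself above that of activated cells, by 0.66, a difference not called. The call of Slc38a1 was lost without miR-15a library a (adjusted p = 0.0827), miR-15a library b (0.0662) or control microRNA library b (0.062), and that of Slc6a9, whose exons overlap those of other genes over 30.3% of their bases, without any one of the 4 libraries compared (0.0553 to 0.138). The calls of Slc38a2 and Slc36a4 were lost without either miR-15a library (limma adjusted p 0.0697 to 0.174), that of Slc36a4 also without most others, that of Slc1a5 without miR-15a library b (0.0597) and that of Slc7a6 without control microRNA library b (0.0516). In the listed amino acid response, 2 of 17 genes were higher and 2 lower, beside 14.4% and 15.4% of all genes tested.

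**Figure D4:**
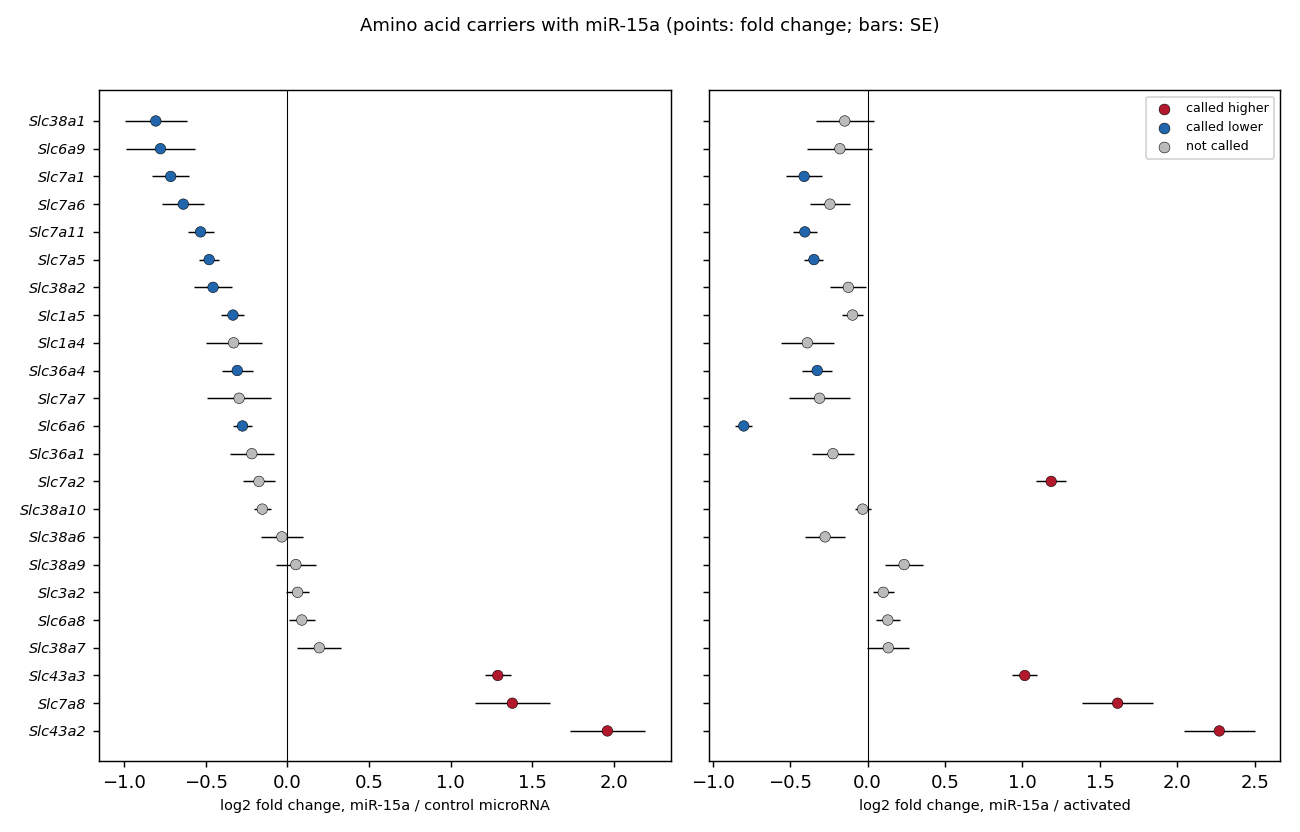
Log2 fold changes (points) with SE (bars) of the 23 amino acid carriers, for activated cells with miR-15a against activated cells with the control microRNA (left) and against activated cells (right). Red marks members called higher, blue those called lower and grey those not called; 10 are lower in the left panel and 5 in the right.

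Outside the amino acid carriers, Slc41a2 was at 936 and 920 with miR-15a, against 1346 and 1346 with the control microRNA, a log2 fold change of −0.53 ± 0.08 (limma adjusted p = 0.0036). The iron and zinc importer Slc39a14 was at 1094 and 1082, against 1540 and 1472, lower by 0.47, as was Slc8a1, by 0.47. Slc2a13 was lower by 0.52, a call lost without miR-15a library b (adjusted p = 0.0874) or either control microRNA library (0.0619 and 0.0679). Slc39a9, at −0.57 with an adjusted p of 0.0349, lost its call without any library other than control microRNA a (0.0508 to 0.152). Of the 52 members that rose on activation, 15 were lower with miR-15a, or 28.8%, beside 20.5% of all genes that rose and 23.6% of those with a mean of at least 100. Another 8 of the 52 were higher with miR-15a, or 15.4%, beside 6.23% and 8.46% of the same genes.

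Mitochondrial carriers were higher with miR-15a in 5 of 27 cases, or 18.5%, close to the 18.3% of all genes with a mean of at least 100. Called lower were 0 of the 27, beside 18.4% of the genes at that level. The 5, Slc25a1, Slc25a4, Slc25a11, Slc25a38 and Slc25a39, had all risen on activation and were higher again by 0.26 to 0.52, with Slc25a4 at 4169 and 4370, against 3374 and 3374. This count ranged from 2 to 6 with 1 library left out: Slc25a4 and Slc25a38 kept their calls throughout, and Slc25a1, Slc25a11 and Slc25a39 lost theirs without miR-15a library a or control microRNA library b (limma adjusted p 0.0643 to 0.174). Under median-ratio scaling the rise of Slc25a11 on activation became −0.013, and that of Slc25a38 was not called. Slc20a1 was likewise higher, at 6000 and 5764, against 4546 and 3894 (0.48), as were Slc39a7, at 4368 and 4265, against 3602 and 3112 (0.37), and Slc2a1 (0.25, a call lost without miR-15a library a or control microRNA library b, with limma adjusted p = 0.0839 in both). Among metal carriers 8 of 25 were higher and 5 lower, beside 18.3% and 18.4% of genes with a mean of at least 100. The 6 carriers of nucleotide sugars and acetyl-CoA had log2 fold changes between −0.23 and 0.12.

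**Figure D5:**
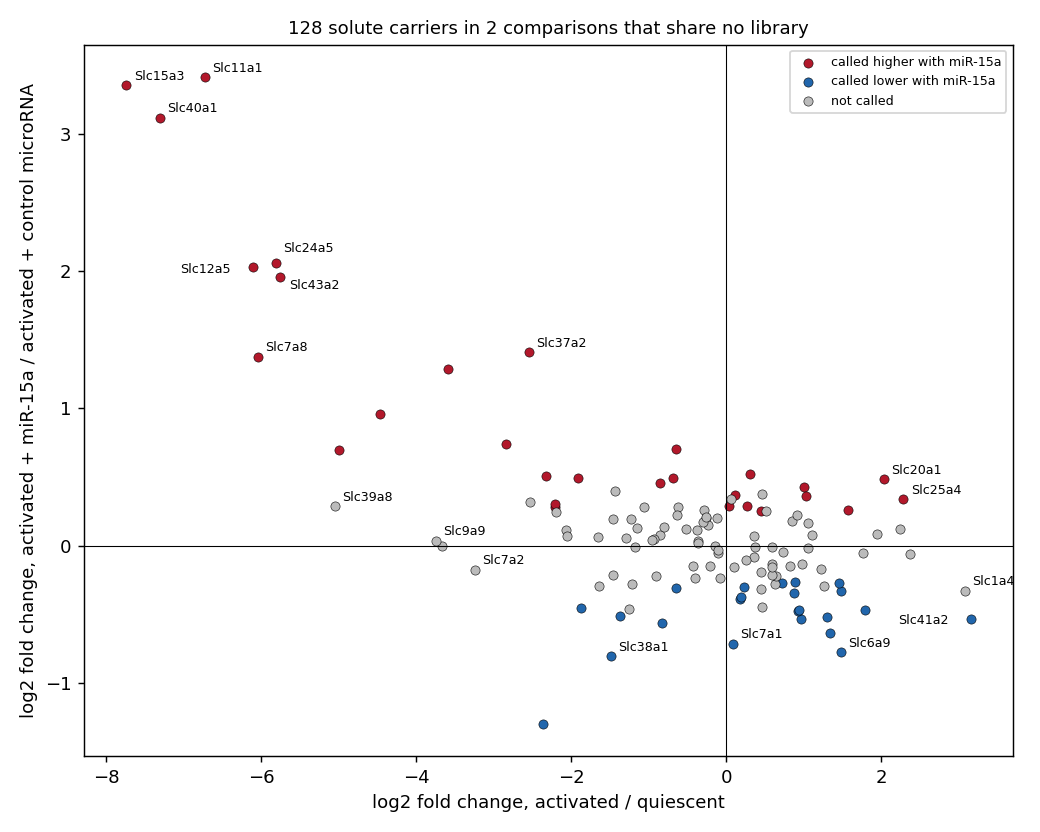
Each point is 1 of 128 carriers, with the log2 fold change in activated against quiescent cells on the x axis and in activated cells with miR-15a against activated cells with the control microRNA on the y axis, coloured by the call on the y axis. The 19 carriers lower on activation and higher with miR-15a lie at the upper left, led by Slc11a1, Slc15a3 and Slc40a1, and the 15 with the opposite pattern at the lower right.

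Against activated cells without a microRNA, 34 members were higher with miR-15a, 16 lower and 78 not called. That is 26.6% and 12.5%, beside 16.8% and 21.6% of all genes tested, and beside 20.9% and 20.2% of genes with a mean of at least 100. Median-ratio scaling, which moves all genes by 0.14 here, gave 58 higher and 10 lower, and the count of lower members was 10 without activated library b. This comparison shares the miR-15a libraries with the previous one, so the pair are given side by side and not as separate support. Slc40a1 led with 712 and 786, against 61 and 38 in activated cells (log2 fold change 3.82 ± 0.21, limma adjusted p = 1.7e-05), followed by Slc24a5 (3.43), Slc15a3 (3.39) and Slc11a1 (3.33). Slc6a6, the taurine carrier, was at 2801 and 2954 with miR-15a, against 4899 and 5123 in activated cells, and at 3446 and 3512 with the control microRNA. Its log2 fold change was −0.80 ± 0.06 (limma adjusted p = 4.9e-05) against activated cells and −0.27 against the control microRNA. Slc8a1 was lower by 0.69 and Slc2a13 by 0.74. Slc7a1 was lower by 0.41, and this call was lost without either miR-15a library or either activated library (limma adjusted p 0.0673 to 0.142).

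Few carriers differed between cells with the control microRNA and activated cells, the phosphate importer Slc20a1 and the arginine carrier Slc7a2 being the clearest. With the control microRNA 9 members were higher and 6 lower, or 7.03% and 4.69%, beside 7.18% and 6.61% of all genes tested and 8.7% and 7.5% of genes with a mean of at least 100. Median-ratio scaling gave 22 higher and 4 lower. The 9 became 5 without either quiescent library, either activated library or control microRNA library b, and the 6 became 2 without either activated library or control microRNA library b. Slc20a1 was at 4546 and 3894 with the control microRNA, against 8202 in both activated libraries, a log2 fold change of −0.96 ± 0.08 (limma adjusted p = 0.00068). With miR-15a it was at 6000 and 5764, between these levels, so it was called higher against the control microRNA and lower against activated cells. Slc7a2 was at 256 and 220 with the control microRNA and at 216 and 204 with miR-15a, against 91 and 88 in activated cells, and Slc16a9 at 86 and 69 and at 78 and 76, against 25 and 37. These carriers were higher with either microRNA than with none, and neither was called between the microRNAs.

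The partners of carriers were listed as well. Beside the counts that follow, 45.4% of all genes tested rose and 34.1% fell on activation. With miR-15a against the control microRNA 14.4% of all genes tested were higher and 15.4% lower. Of 5 genes of the sodium pump, whose gradient drives many carriers, 2 rose and 2 fell on activation. With miR-15a against the control microRNA 1 of the 5 was higher and 1 lower. Of 15 chaperones and partners 8 rose and 6 fell, and 2 were higher and 3 lower with miR-15a. Basigin, Bsg, the partner of MCT1 and MCT4, was at 3994 in both activated libraries, against 1515 and 1386, and at 5343 and 5764 with miR-15a, against 4168 and 4086 with the control microRNA. Of 14 genes of glutamine, glutamate and glutathione metabolism 6 rose and 6 fell, and 5 were higher and 2 lower with miR-15a. The cystine carrier Slc7a11 and the glutamate-cysteine ligase subunits parted: Gclc and Gclm fell by 2.63 and 2.81 on activation, where Slc7a11 rose. They were higher with miR-15a, by 0.69 and 0.82, where Slc7a11 was lower. Of the 23 genes of iron, zinc and copper handling 9 were higher with miR-15a and 1 lower. The transferrin receptor Tfrc, which imports iron, was at 2700 and 2640, against 1386 and 1260.

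MicroRNAs guide repression by pairing of their seed, bases 2 to 8, with sites in the 3′ UTR of a messenger RNA. The seed of miR-15a-5p is shown in capitals beside 2 relatives that share it (RefSeq, GRCm38.p6; miR-15a-5p lies at chr14:61632075-61632096 on the minus strand). In all 10 mature mouse microRNAs of the table carry this seed.
miR-15a-5p: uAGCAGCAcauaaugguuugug
miR-16-5p: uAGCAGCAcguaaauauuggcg
miR-195a-5p: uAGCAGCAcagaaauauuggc
The matching 7 letters TGCTGCT were sought on the transcript strand of the longest annotated 3′ UTR (GENCODE M21, GRCm38). A match was found in 42 of 128 members, or 32.8%, beside 24.4% of all tested genes with a 3′ UTR and 26.6% of those with a mean of at least 100. The median 3′ UTR was 1731.5 bases for members and 1195 for all genes tested, and longer UTRs hold more matches: it was 2776 bases in members with a match and 1053.5 in those without.

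Of the 23 members lower with miR-15a than with the control microRNA, 8 held a match, or 34.8%. Of the 29 higher members 4 did, or 13.8%, and of the 76 not called 30 did, or 39.5%. The share in lower members was thus below that in members not called and above that in higher members. The median 3′ UTR was 2130 bases in lower members, 1241 in higher members and 1770.5 in members not called. Over all genes with a 3′ UTR, 634 of 1921 lower ones held a match, or 33.004%, and 372 of 1807 higher ones, or 20.587%, beside 24.4% of all tested. The median 3′ UTR was 1799 bases in these lower genes, 1034 in the higher ones and 1195 in all tested. The part of 3′ UTR length in these shares was not tested. Against activated cells 7 of 16 lower members held a match, or 43.8%, 9 of 34 higher ones, or 26.5%, and 33.3% of those not called. Over all genes of that comparison the shares were 27.1% of lower and 21.3% of higher ones. The median 3′ UTR was 2957 bases in these lower members, 1751.5 in higher ones and 1627.5 in those not called. The first match of 7 of the 8 members lower against the control microRNA is printed 5′ to 3′. The 7 letters are in capitals, as the stretches at which miR-15a could pair. They lie in the last exon of the transcript, at chr15:91270705-91270711 in Slc2a13, chr5:148331716-148331722 in Slc7a1, chr3:50366489-50366495 in Slc7a11, chr9:15738827-15738833 in Slc36a4, chr15:96688315-96688321 in Slc38a2, chr10:83233371-83233377 in Slc41a2 and chr9:21354483-21354489 in Slc44a2.
Slc2a13: accagttaggaacacatcacttTGCTGCTg
Slc7a1: ctagcaggcctgggttggctttTGCTGCTc
Slc7a11: ttttatctgagaatttcattacTGCTGCTg
Slc36a4: ttgtgttttattccatgggtgaTGCTGCTg
Slc38a2: gcagtgagaagacactcccccaTGCTGCTt
Slc41a2: aaaccacaatgaatggtatttgTGCTGCTt
Slc44a2: ctgtgtgaggaacgattggtgtTGCTGCTg
None of these is the 8-letter form that ends in an A opposite base 1, which 7 members hold, all of them not called against the control microRNA. Against activated cells 3 of these 7, Slc4a7, Slc20a2 and Slc39a10, were higher with miR-15a, 0 were lower and 4 were not called. Slc7a1 holds 3 matches in its 3′ UTR, and Slc2a13, Slc7a11 and Slc36a4 hold 2 each. Of the 8, Slc38a2 was the one not called against activated cells, at 2732 and 2922 with miR-15a and 3112 and 3047 in activated cells, and its level with the control microRNA was 3373 and 4446.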

How the data were processed

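Per the labels' protocols, TRIzol RNA was made into TruSeq libraries and read from 1 end on a NextSeq. STAR, featureCounts, Subread and the build mm10 are listed in the submitters' processing notes; versions, settings and strand handling are not given in the sources used here. The authors deposited 1 table of 14162 genes, named as read counts. Its deposited values were used as a score, since all 8 libraries hold the same set of values and the same maximum of 125636, reached by 10 genes in each; no step that does this is recorded, and with 1 shared distribution a change in total RNA cannot be seen.

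Values were tested with limma 3.58.1 in R 4.3.3 on log2(value + 5), for genes at 10 or more in at least 2 libraries, with 4 group means over the 8 libraries, 4 residual degrees of freedom, a variance prior following the level and Benjamini-Hochberg adjustment. The procedure was tested on simulated data. Those data had independent noise and not the shared steps of the deposited scores, so that test does not vouch for the calls here. Of the members, 19 are tied between the libraries of some group, and their SE may be too small.

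Members, classes and gene lists (7 marker lists and 6 pathway lists) were chosen with earlier results of these data known. Genes named by rule were the 6 largest rises and 6 largest falls of each comparison among called members whose groups do not overlap, the extremes and the most abundant member of each family of 4 or more, pairs that parted, and the genes next to the level of 100. Any other gene named, including every gene that is no member, was chosen after its values were seen. Exon lengths, overlaps and 3′ UTRs come from GENCODE M21 (GRCm38). Some results are not reported here.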

Additional observations from a re-analysis of the deposited data

How the results depend on the processing

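Shares of the 128 members called are given. Requiring a log2 fold change over 1 left 17.2% higher and 31.3% lower in activated against quiescent cells, 7.03% and 0.781% with miR-15a against the control microRNA, 10.2% and 0% with miR-15a against activated cells, and 2.34% and 0% with the control microRNA against activated cells. Fits of only the groups compared gave 14.8% and 10.9% with miR-15a against the control microRNA, and 0.787% and 1.57% with the control microRNA against activated cells. Median-ratio scaling gave 45.3% and 7.81% with miR-15a against activated cells and 17.2% higher with the control microRNA against activated cells, where a common variance prior gave 3.91%. With 1 library left out, the lower share with miR-15a against the control microRNA ranged from 9.38% to 15.6%, that against activated cells from 7.81% to 14.8%, and the higher and lower shares with the control microRNA against activated cells from 3.91% to 7.81% and from 1.56% to 5.47%. Where a library is left out of a group, its partner is assumed to vary like the other groups. The 8-letter site was held by 5.47% of members. Under median-ratio scaling the fold changes on activation of Slc25a3, Slc25a11, Slc16a4 and Slc44a2 turned to −0.025, −0.013, −0.038 and −0.085, none called, and that of Slc39a3, not called as deposited, to −0.25 (called); the cause was not tested. Replicate letters did not pair libraries (correlations of deviations −0.0666 to 0.0872); with a replicate block 51 members rose and 61 fell on activation, and 28 were higher and 21 lower with miR-15a than with the control microRNA. Of 524 fold changes of members and of the genes next to the level of 100, 235 were called, and between 0 and 40 lost their call under any 1 setting; up to 51 gained one, under median-ratio scaling. Leaving out each library for the substrate classes was added after seeing the data. The planned comparison of protein sequences within families was not run. Depth is unknown, and members under 10 in some library (4) are the least certain.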

Other observations

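Carriers whose names fall outside the name form were listed as well. Of 46 such genes tested, 21 rose and 13 fell on activation, with a median of 0.28. Of all genes tested 45.4% rose and 34.1% fell, with a median of 0.21. With miR-15a 10 of the 46 were higher and 6 lower than with the control microRNA, beside 14.4% and 15.4% of all genes tested. The nucleotide sugar carriers of family 35 with other letters included Slc35e4, an orphan member, at 2570 and 2758 in activated cells, against 690 and 743 in quiescent cells. Ank, which exports pyrophosphate and ATP, was at 732 and 782 in activated cells, against 96 and 112 in quiescent cells, and at 561 and 646 with miR-15a, against 956 and 1002 with the control microRNA. The phosphate exporter Xpr1 was at 436 and 392 with miR-15a, against 574 and 718 with the control microRNA, where the phosphate importer Slc20a1 was higher. Slco1a4, an organic anion carrier, was at 87 and 76 with miR-15a, against 4 and 3 with the control microRNA, and at 147 and 122 in quiescent cells. These genes were named after their values were seen.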
